A study of Mus musculus with 2 samples.

Results

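The 67 replication-dependent histone genes of the mouse were examined in single cells of popliteal lymph nodes (PLNs), the nodes that drain the ankle and hindpaw. A gene was a member if its symbol began with Hist1h, Hist2h, Hist3h or Hist4h, which took 67 of the 32285 genes in the count tables. They comprised 6 linker histone H1 genes, 18 H2A, 18 H2B, 12 H3 and 13 H4 genes, all annotated as protein coding, with 54 on chromosome 13, 10 on chromosome 3, 2 on chromosome 11 and 1 on chromosome 6. Cells were split into B and T cells by lineage genes and into cycling and non-cycling cells by 4 genes of dividing cells (Top2a, Birc5, Mki67 and Pclaf, at least 3 unique molecular identifiers, UMIs, in sum). No histone gene was used to choose cells.

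Cells were taken from male TNF transgenic (TNF-Tg) mice on the C57BL/6 background, which overproduce TNF and develop inflammatory-erosive arthritis. The Early library came from mice of 5 to 6 months with Early arthritis and the Advanced library from mice older than 8 months with Advanced arthritis. Each library pooled 6 PLNs of 3 mice. Both stages carried the transgene, and stage and age rose together and cannot be told apart. With 1 pooled library per stage there was no replicate and no test was possible, so no p-value is given. Values in parentheses after a level are its exact Poisson 95% interval and after a ratio its exact conditional 95% interval, and both cover counting error only.

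Histone proteins package DNA. Pairs of H2A, H2B, H3 and H4, the core histones, form the nucleosome, and H1 binds the linker DNA between nucleosomes. Replication-dependent histone genes are transcribed mainly in S phase, when new DNA must be packaged, and most of their mRNAs end in a conserved stem-loop that binds the protein Slbp, not in a poly(A) tail. Libraries of this kind prime cDNA on poly(A), so they read the polyadenylated or internally primed part of these transcripts. The counts therefore compare the captured part of one gene between groups of cells, and not the abundance of one histone mRNA with that of another. Whether the captured part is the same in cycling and non-cycling cells was not tested. Replication-independent variants, such as H3.3, are made throughout the cell cycle from mRNAs with ordinary poly(A) tails.

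The stem-loop was searched in the annotated exons after the stop codon as GGCNCTTTTNAGNGCC, where N is any base and all 16 bases are shown in capitals. It was found in 42 of the 67 members. They are shown because the libraries were primed on poly(A), and 1 example is given for each form found.
Hist1h3b, chr13:23752820-23752835, plus strand, form found in 26 members: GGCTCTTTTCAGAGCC
Hist1h4d, chr13:23581950-23581965, plus strand, form found in 7 members: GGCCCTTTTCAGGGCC
Hist1h3c, chr13:23745047-23745062, minus strand, form found in 6 members: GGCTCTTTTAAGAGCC
Hist1h4i, chr13:22040966-22040981, minus strand, form found in 2 members: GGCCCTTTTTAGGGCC
Hist2h2ac, chr3:96220418-96220433, minus strand, form found in 1 member: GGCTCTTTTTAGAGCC

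Coordinates are those of GRCm38. No match says only that these letters were not in the annotated exons, and of the 25 members without one, 17 had fewer than 50 annotated bases after the stop codon. A poly(A) signal (AATAAA or ATTAAA) lay after the stop codon in 22 members and within the last 50 annotated bases in 17 of them. Annotated sequence after the stop codon ranged from 0 to 4931 bases.

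Promoters of 62 members were matched to RefSeq (GRCm38.p6), giving 63 promoters of 300 bases, 250 before the start of transcription and 50 after it. Capitals mark the TATA box letters TATAAA, the CCAAT box, the octamer ATTTGCAT and the H1 box AAACACA, each on either strand. CCAAT occurred in all 6 H1, 18 H2A, 17 H2B and 10 H3 promoters but in 3 of 12 H4 promoters, against 37.4% of 32851 promoters of the same length in the genome. TATAAA occurred in 35 of 63 (55.6%) against 13.6%. The octamer occurred in 7 of 18 H2A (38.9%) and 7 of 17 H2B promoters (41.2%) and in none of the H1, H3 or H4 promoters, against 1.74% of all promoters. AAACACA occurred in 5 of 6 H1 promoters (83.3%), in 2 H2A and 2 H2B promoters and in none of H3 or H4, against 7.18%. Of the 63 promoters, 20 overlapped the promoter of another member, so these counts are not independent. Promoters of 2 H1 genes whose ratios lay far apart, Hist1h1b and Hist1h1c, and of 1 gene each of H2A, H2B, H3 and H4 are printed. A match is a description of letters and not a binding site.
Hist1h1b promoter, chr13:21780576-21780875, minus strand: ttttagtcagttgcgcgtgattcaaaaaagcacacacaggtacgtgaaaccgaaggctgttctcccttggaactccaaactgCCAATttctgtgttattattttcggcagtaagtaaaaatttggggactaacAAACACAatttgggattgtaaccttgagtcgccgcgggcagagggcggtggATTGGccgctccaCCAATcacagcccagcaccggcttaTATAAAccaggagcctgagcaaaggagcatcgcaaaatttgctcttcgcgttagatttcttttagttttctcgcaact
Hist1h1c promoter, chr13:23738557-23738856, plus strand: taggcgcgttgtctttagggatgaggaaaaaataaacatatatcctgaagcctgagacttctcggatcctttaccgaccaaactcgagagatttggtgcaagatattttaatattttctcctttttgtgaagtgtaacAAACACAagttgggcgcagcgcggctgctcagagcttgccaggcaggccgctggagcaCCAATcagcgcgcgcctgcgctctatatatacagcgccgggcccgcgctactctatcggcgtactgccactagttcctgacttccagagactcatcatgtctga
Hist1h2ab promoter, chr13:23750838-23751137, plus strand: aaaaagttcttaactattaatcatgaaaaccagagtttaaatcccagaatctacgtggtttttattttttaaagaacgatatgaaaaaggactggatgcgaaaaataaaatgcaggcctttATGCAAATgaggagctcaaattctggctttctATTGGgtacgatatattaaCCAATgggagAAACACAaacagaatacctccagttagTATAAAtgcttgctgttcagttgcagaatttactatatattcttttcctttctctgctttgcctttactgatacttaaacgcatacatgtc
Hist1h2bm promoter, chr13:21721794-21722093, plus strand: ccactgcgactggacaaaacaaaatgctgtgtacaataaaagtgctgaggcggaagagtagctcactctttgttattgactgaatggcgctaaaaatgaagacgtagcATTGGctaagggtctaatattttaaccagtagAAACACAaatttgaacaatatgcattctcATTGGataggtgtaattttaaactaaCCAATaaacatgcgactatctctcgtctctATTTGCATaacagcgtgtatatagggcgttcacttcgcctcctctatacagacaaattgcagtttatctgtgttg
Hist1h3b promoter, chr13:23752095-23752394, plus strand: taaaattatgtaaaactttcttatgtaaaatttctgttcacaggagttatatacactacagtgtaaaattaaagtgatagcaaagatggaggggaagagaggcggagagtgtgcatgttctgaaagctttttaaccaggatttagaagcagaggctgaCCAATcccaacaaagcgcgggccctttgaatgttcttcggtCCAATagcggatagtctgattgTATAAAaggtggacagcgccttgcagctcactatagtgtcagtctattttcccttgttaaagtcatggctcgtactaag
Hist1h4d promoter, chr13:23581318-23581617, plus strand: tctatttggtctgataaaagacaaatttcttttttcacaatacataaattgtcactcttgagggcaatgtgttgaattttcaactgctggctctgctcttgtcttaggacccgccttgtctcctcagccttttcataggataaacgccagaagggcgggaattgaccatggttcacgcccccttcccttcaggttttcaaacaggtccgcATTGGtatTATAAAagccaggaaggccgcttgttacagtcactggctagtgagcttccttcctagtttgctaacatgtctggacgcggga

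The Early library held 67610110 UMIs in 8221 cells and the Advanced library 83148059 UMIs in 8183 cells, and 20 cell barcodes occurred in both. Histone members took 0.237% and 0.263% of the UMIs. The gates gave 7640 B cells in the Early library, 106 of them cycling (1.39%), and 6051 in the Advanced library, 155 of them cycling (2.56%). T cells numbered 178, with 41 cycling (23.0%), and 1194, with 75 cycling (6.28%). Markers not used in the gates followed the lineages, where 5 further B genes (Pax5, Cd37, Fcmr, Ebf1, Blk) summed to 1559 and 1781 CPM (UMIs of the genes per 1e6 UMIs of the group) in cycling B cells and to 160 and 173 in cycling T cells, and 6 further T genes (Cd2, Lck, Cd5, Cd28, Bcl11b, Thy1) to 1127 and 1056 in cycling T and to 109 and 130 in cycling B cells. Cycling cells were deeper, with medians of 21874 and 23449 UMIs per B cell against 6551 and 7358 in non-cycling B cells, and 31967 and 32353 per T cell against 8813 and 10420. Lymphoid precursor genes (Vpreb1, Vpreb2, Igll1, Dntt, Rag1 and Rag2, at least 3 UMIs) marked 0 of 106 Early and 32 of 155 Advanced cycling B cells (20.6%), and 12 of 41 and 34 of 75 cycling T cells. Plasma cell genes (at least 10 UMIs) marked 50 and 48 cycling B cells.

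Histone CPM was higher in cycling than in non-cycling cells of both lineages and at both stages, in every class. In B cells the 67 members together reached 14777 CPM (14636 to 14919) in cycling against 1181 (1172 to 1190) in non-cycling Early cells, a ratio of 12.5 (12.4 to 12.7). In the Advanced library they reached 16772 CPM (16652 to 16893) against 1019 (1011 to 1028), a ratio of 16.5 (16.3 to 16.6). T cells showed the wider contrast. Their summed level was 20604 CPM (20372 to 20837) in cycling and 1078 (1023 to 1136) in non-cycling Early cells, a ratio of 19.1 (18.1 to 20.2), and 20894 (20715 to 21073) against 780 (764 to 796) in Advanced cells, a ratio of 26.8 (26.2 to 27.4). Cycling T cells stood 1.39 times (1.37 to 1.42) above cycling B cells in the Early and 1.25 times (1.23 to 1.26) in the Advanced library, while non-cycling T cells stood below non-cycling B cells, at 0.913 (0.866 to 0.963) and 0.765 (0.749 to 0.782).

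**Figure D1:**
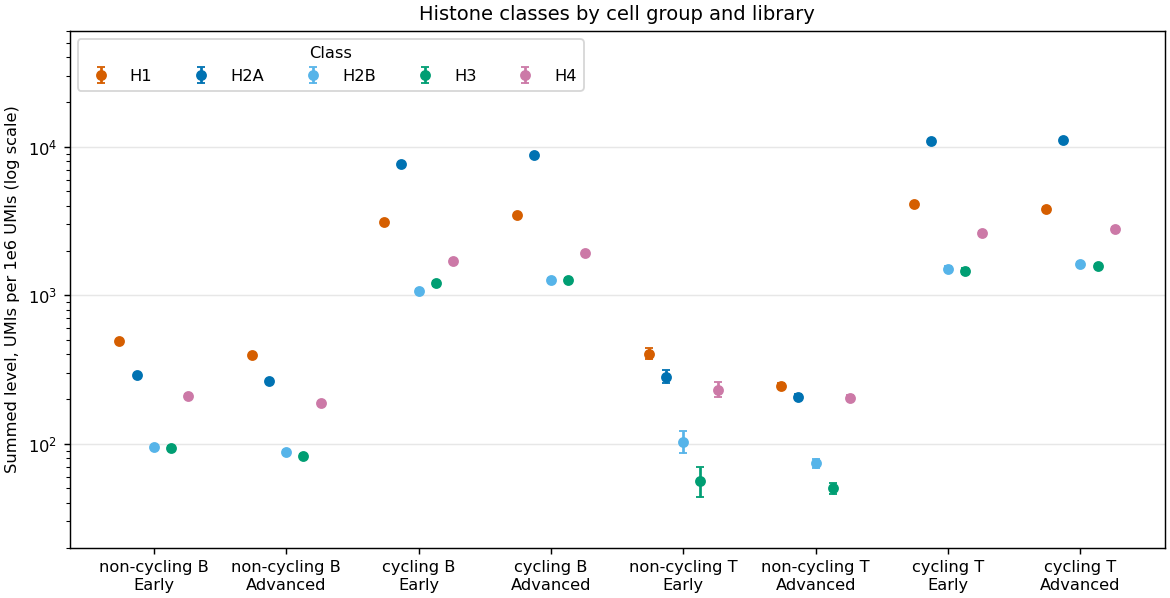
Summed level of each histone class (UMIs per 1e6 UMIs, log scale) in the 8 groups of cells, 1 point per class and library with its exact Poisson 95% interval, which is often smaller than the point. Every class was higher in cycling than in non-cycling cells of the same lineage and library.

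The classes differed in how far they rose, which compares each class with itself between groups and not their levels with each other. H1 stood at 3121 CPM (3056 to 3187) in cycling against 492 (486 to 498) in non-cycling Early B cells, and at 3495 (3441 to 3551) against 399 (393 to 405) in Advanced B cells. H2A stood at 7688 CPM (7587 to 7791) against 289 (284 to 293) and at 8818 (8731 to 8906) against 264 (260 to 269). By summed UMIs H2A had the largest cycling ratio of the classes, 26.6 and 33.4 in B cells and 38.5 and 53.6 in T cells, Early first. H1 had the smallest in B cells, 6.34 (6.19 to 6.50) and 8.76 (8.58 to 8.95), with H4 next at 8.04 and 10.3. In T cells H1 was at 10.1 (9.27 to 11.1) and 15.5 (14.9 to 16.2), where the Early interval overlapped that of H4 at 11.4 (10.1 to 12.8) and the Advanced H4 ratio was the lower at 13.7 (13.1 to 14.4). H2B rose 11.3- and 14.4-fold in B cells and 14.7- and 22.0-fold in T cells, and H3 12.8- and 15.4-fold and 26.1- and 31.6-fold. The H2A ratio was 4.20 times (4.07 to 4.33) the H1 ratio in Early B cells, 3.81 times (3.70 to 3.92) in Advanced B cells, 3.80 times (3.32 to 4.35) in Early T cells and 3.45 times (3.26 to 3.66) in Advanced T cells. These differences between class sums were larger than counting error in all 4 comparisons. A class sum weighs its members by their UMIs, and the median member ratio ranked some classes otherwise. H3 had the highest median in Early T cells, 55.1 against 33.1 for H2A, which was highest in the other comparisons. The H4 median was below that of H1 in Early B (6.73 against 6.85), Advanced B (11.4 against 13.1) and Advanced T cells (13.3 against 27.6). In Early T cells it was above (13.1 against 10.1).

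Nearly all measured members took part. A member was compared if both groups together held at least 20 of its UMIs, and was called higher or lower if its 95% interval lay wholly beyond 2-fold. In Early B cells 51 of 56 members were called higher, where 9.57% of all 12455 genes were, and 0 lower, where 2.90% of all genes were. In Advanced B cells 53 of 59 were higher (background 9.99%) and 0 lower (2.53%). In T cells 45 of 50 Early (5.76%) and 52 of 57 Advanced members (10.5%) were higher, and 0 were lower in either (2.51% and 2.57%). The other 11, 8, 17 and 10 members fell under the UMI minimum in Early B, Advanced B, Early T and Advanced T cells. The median member ratio was 11.5 and 14.5 in B cells and 23.2 and 27.6 in T cells, while the median over all genes compared was 0.984, 1.03, 1.01 and 1.18 (a shift of 0.24 on the log2 scale in Advanced T cells). The 7% of cells with the most UMIs were next left out. This removed 75.5% and 61.9% of cycling B and 95.1% and 78.7% of cycling T cells. The summed ratios were then 8.53 and 22.1 in B and 1.80 and 16.5 in T cells. In Early T cells, of which 2 cycling cells were left, 1 member was called, beside 53 of all genes. Since cycling cells supplied most of the UMIs of the weak members, a member that passed the minimum was more likely to be high there.

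**Figure D2:**
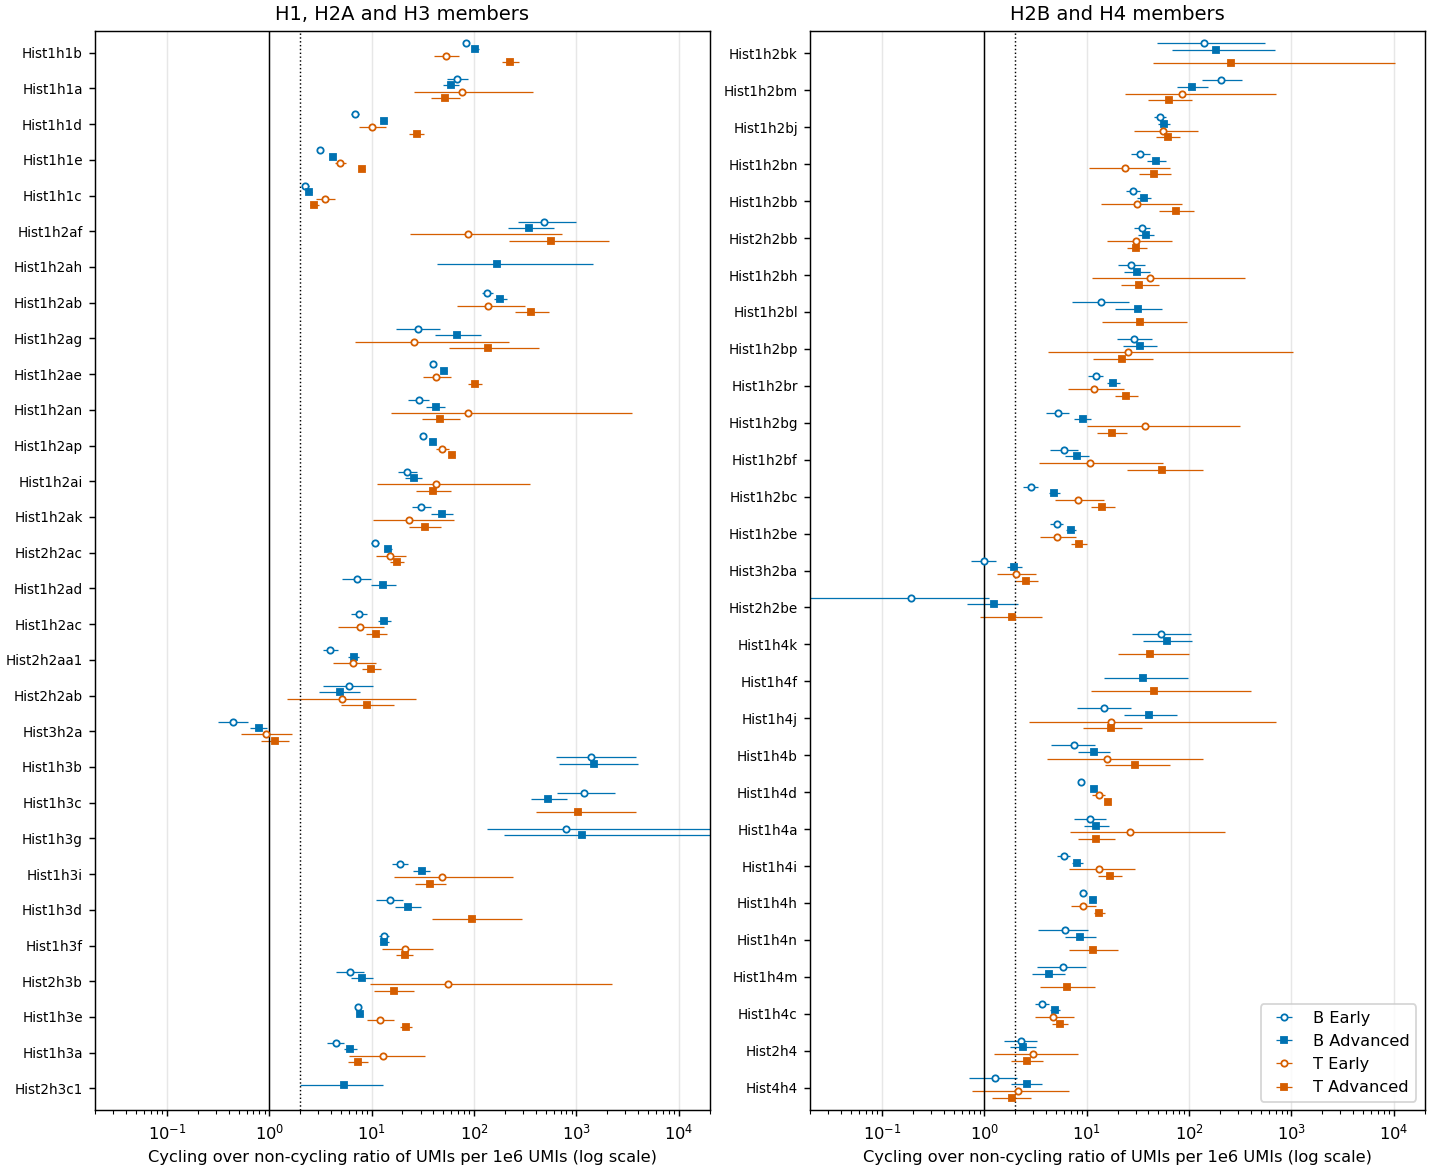
Cycling over non-cycling ratio of each member (log scale) with its exact 95% interval, blue for B and orange for T cells, open for the Early and filled for the Advanced library, for members with at least 20 UMIs and at least 1 in each group. The solid line marks a ratio of 1 and the dotted line 2-fold, and intervals that run past the axis are cut at its edge. Most members lie right of the dotted line, Hist1h3b, Hist1h3c and Hist1h3g farthest, and Hist3h2a lies at or left of 1 in B cells.

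Among H3 genes, Hist1h3b, Hist1h3c and Hist1h3g had the highest ratios in B cells, each on 1 to 26 UMIs in non-cycling cells. Hist1h3b had 416 UMIs in the 106 cycling Early B cells (147 CPM) and 6 in the 7534 non-cycling ones (0.106 CPM), a ratio of 1380 (629 to 3782). It had 783 against 6 UMIs in Advanced B cells, a ratio of 1474 (674 to 4029). In T cells it had 317 and 571 UMIs in cycling and 0 in non-cycling cells, which makes it at least 95.5-fold and 908-fold higher when the 0 is set to the limit it allows, 3 UMIs per group. Hist1h3c had 650 against 11 UMIs in Early B cells (ratio 1176, 653 to 2368) and 1216 against 26 in Advanced B cells (528, 359 to 812). In T cells it had 434 against 0, at least 131-fold, and 866 against 4 (1033, 402 to 3799). Hist1h3g had 40 against 1 and 100 against 1 UMIs in B cells, and 32 and 71 against 0 in T cells. The B cell intervals of Hist1h3g, 135 to 32226 and 198 to 45056, overlap those of the other two, so these members are not ranked. The most counted H3 gene, Hist1h3e, behaved differently: it kept 58.1 and 49.0 CPM in non-cycling B cells against 430 and 381 in cycling ones, ratios of 7.41 (6.93 to 7.92) and 7.77 (7.30 to 8.26). Its T cell ratios were 12.0 (8.92 to 16.4) and 21.7 (18.9 to 24.9). Hist1h3f lay between, at 13.3 (11.9 to 14.9) and 13.3 (12.0 to 14.7) in B cells. All these genes encode canonical H3, and the spread of their ratios within 1 class was wider than the spread between classes.

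Among H2A genes, Hist1h2ap alone held 107386 of the members' UMIs, 28.4% of the total. It stood at 5272 and 5960 CPM in cycling against 167 and 149 in non-cycling B cells, ratios of 31.6 (30.8 to 32.5) and 39.9 (38.9 to 41.0), and at 7593 and 7698 against 154 and 126 CPM in T cells, ratios of 49.1 (42.8 to 56.7) and 61.3 (58.1 to 64.6). Its last 300 exonic bases were found in full, in windows of 91 bases, in other histone genes. Reads of these bases cannot be told from those of such genes, and how they were counted was not settled. Hist1h2ab, with 1874 against 276 and 3171 against 200 UMIs, had the higher B ratios of 135 (119 to 154) and 179 (155 to 208), and T ratios of 136 (68.8 to 316) and 360 (250 to 539). Hist1h2af was higher still in B cells, with 268 against 11 UMIs (485, 267 to 983) and 520 against 17 (346, 214 to 598). Hist1h2ae rose 39.7-fold and 50.9-fold in B cells and 42.8-fold and 102-fold in T cells. Hist2h2ac, from the chromosome 3 cluster, rose less, 10.7-fold and 14.5-fold in B cells and 15.2-fold and 17.7-fold in T cells.

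Among H2B genes, Hist1h2bj had 745 UMIs in cycling against 286 in non-cycling Early B cells, a ratio of 51.9 (45.2 to 59.6), and 1223 against 244 in Advanced B cells, a ratio of 56.6 (49.3 to 65.2). Its T ratios, 55.5 (29.0 to 122) and 61.8 (47.8 to 81.2), were within counting error of those in B cells. Hist1h2bm rose 206-fold (135 to 327) and 106-fold (76.1 to 152) in B cells. Hist1h2bc kept a level in non-cycling B cells, at 21.5 and 17.3 CPM against 60.7 and 83.8 in cycling ones, and its ratio was 2.83 (2.40 to 3.32) and 4.84 (4.28 to 5.47) in B and 8.19 (4.88 to 14.7) and 14.2 (10.9 to 18.7) in T cells. Hist1h2be had ratios of 5.08 and 6.99 in B and 5.12 and 8.36 in T cells. Its annotated exons overlap Hist1h1e on the same strand, so reads in the overlap cannot be assigned to either gene alone.

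The H4 genes, known to encode the same protein, also differed in their ratios. Hist1h4d held most H4 UMIs and stood at 1163 and 1287 CPM in cycling against 131 and 108 in non-cycling B cells, ratios of 8.86 (8.50 to 9.23) and 11.9 (11.5 to 12.4), with T ratios of 13.1 (11.3 to 15.2) and 16.1 (15.2 to 17.0). Hist1h4h followed at 9.28 and 11.4 in B and 9.23 and 13.3 in T cells, and Hist1h4i at 5.94 and 8.05 in B and 13.3 and 16.8 in T cells. Hist1h4c, at 17.7 and 22.4 CPM in non-cycling B cells, had the lowest ratios of these, 3.66 (3.11 to 4.29) and 4.91 (4.41 to 5.46). Hist1h4k, with 37 against 14 and 91 against 17 UMIs in B cells, reached 52.6 (27.8 to 105) and 60.5 (35.8 to 108).

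A few members were not called in any comparison they entered, and all of them lie outside the large chromosome 13 cluster. Hist3h2a, on chromosome 11, stood at 13.4 CPM in cycling and 30.1 CPM in non-cycling Early B cells, a ratio of 0.446 (0.314 to 0.615), and at 27.2 against 34.3 in Advanced B cells, a ratio of 0.792 (0.653 to 0.953). In T cells its ratios were 0.937 (0.532 to 1.65) and 1.13 (0.820 to 1.54), both within counting error of 1. Its neighbour Hist3h2ba had ratios of 0.992 (0.744 to 1.30) and 1.95 (1.65 to 2.31) in B cells and 2.03 (1.32 to 3.19) and 2.57 (1.99 to 3.31) in T cells. Hist4h4, on chromosome 6, had ratios of 1.26 (0.709 to 2.08), 2.62 (1.84 to 3.65), 2.11 (0.761 to 6.70) and 1.85 (1.18 to 2.83) in Early B, Advanced B, Early T and Advanced T cells. Hist2h2be had 1 UMI in cycling against 103 in non-cycling Early B cells and 15 against 137 in Advanced B cells, ratios of 0.193 (0.00485 to 1.10) and 1.24 (0.674 to 2.11). Its Advanced T ratio was 1.88 (0.908 to 3.67), and with 3 against 6 UMIs it was not compared in Early T cells. Hist2h4, named after its values were seen, was also not called, with ratios between 2.29 and 2.97. Hist2h3c1, also named after its values were seen, entered the Advanced B comparison alone, with 8 against 17 UMIs, and was not called. Hist2h2ab, named likewise, was called in 3 of 4 comparisons and missed the rule in Early T cells, with 17 against 3 UMIs.

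The share of the linker histone variants differed between cycling and non-cycling cells. Hist1h1b (H1.5) had 4237 UMIs in cycling and 1018 in non-cycling Early B cells, or 1496 against 18.1 CPM, a ratio of 82.8 (77.4 to 88.8). In Advanced B cells it had 7558 against 825 UMIs, a ratio of 103 (96.3 to 111), and in T cells 3014 against 51 (53.4, 40.5 to 71.9) and 4965 against 105 (226, 186 to 276). Hist1h1a (H1.1) rose in the same range, 116 against 1.70 CPM and 174 against 2.93 CPM in B cells, ratios of 68.2 (54.2 to 86.6) and 59.6 (49.9 to 71.6). Its T ratios were 76.5 (25.9 to 374), on 254 against 3 UMIs, and 51.8 (38.0 to 72.3).

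Hist1h1e (H1.4) and Hist1h1c (H1.2) were present in all groups. All 91-base windows in the last 300 exonic bases of Hist1h1e also occur in the annotated Hist1h2be, so the split between that pair rests on the counting. Hist1h1e stood at 978 and 1024 CPM in cycling and 314 and 244 CPM in non-cycling B cells, ratios of 3.12 (2.99 to 3.24) and 4.20 (4.06 to 4.35), and at 1205 and 1021 against 243 and 126 in T cells, ratios of 4.95 (4.39 to 5.59) and 8.10 (7.60 to 8.64). Hist1h1c stood at 273 and 272 CPM in cycling and 121 and 111 in non-cycling B cells, ratios of 2.25 (2.09 to 2.43) and 2.45 (2.30 to 2.61). In T cells it stood at 294 and 260 against 83.7 and 94.3 CPM, ratios of 3.51 (2.84 to 4.36) and 2.76 (2.50 to 3.04). Hist1h1d (H1.3) was intermediate, at 6.85 (6.29 to 7.45) and 13.1 (12.1 to 14.1) in B cells and 10.1 (7.57 to 13.9) and 27.6 (23.4 to 32.8) in T cells. The testis variant gene Hist1h1t had 2 UMIs in both libraries together, 1 of them in a cycling Advanced B cell.

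**Figure D3:**
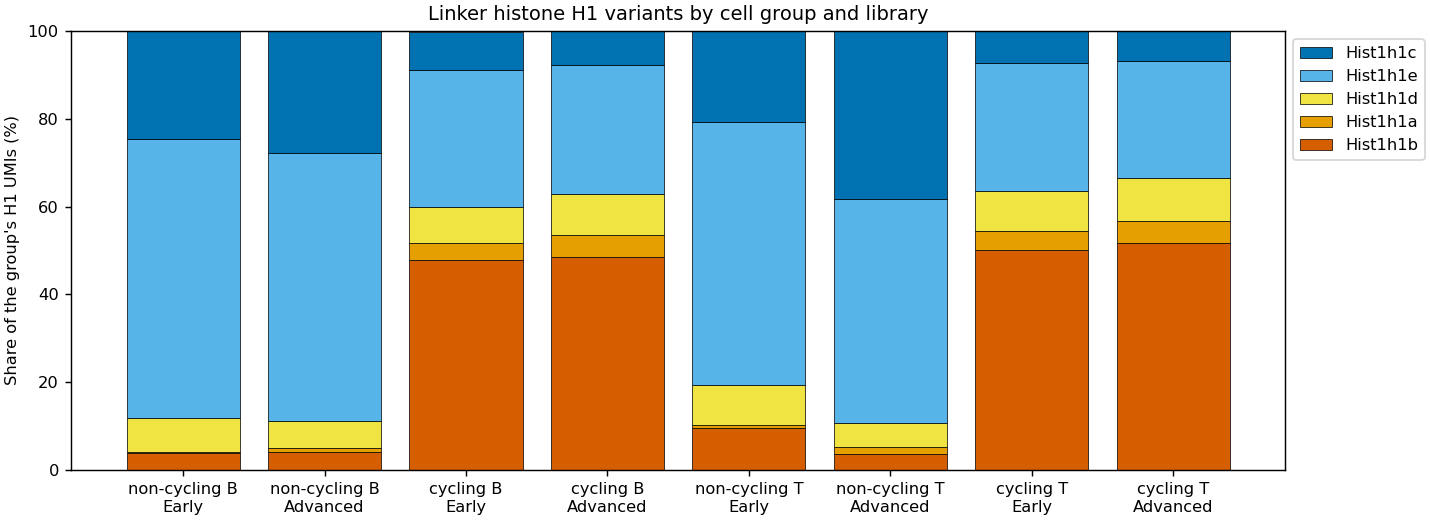
Share of each H1 variant in the H1 UMIs of the 8 groups (percent, stacked to 100, 1 library per bar, no error drawn). Hist1h1b made up 47.9 to 51.7% in cycling and 3.56 to 9.50% in non-cycling groups, where Hist1h1e held 51.1 to 63.8% of the H1 UMIs.

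A share of the H1 UMIs describes the counts and not the abundance of the mRNAs. As such a share, Hist1h1b made up 47.9% and 48.6% in cycling B cells and 50.1% and 51.7% in cycling T cells, against 3.67% and 4.11% and 9.50% and 3.56% in the non-cycling cells. Hist1h1e made up 63.8% and 61.1% of H1 UMIs in non-cycling against 31.3% and 29.3% in cycling B cells, and 60.1% and 51.1% against 29.4% and 26.7% in T cells. Hist1h1c made up 24.6% and 27.8% against 8.74% and 7.78% in B cells, and 20.7% and 38.3% against 7.16% and 6.81% in T cells. The Hist1h1d share moved less, 7.66% and 6.25% in non-cycling against 8.27% and 9.33% in cycling B cells. The composition was thus nearer between cycling B and cycling T cells than between cycling and non-cycling cells of 1 lineage.

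The 3′ end of a member went with its contrast. Members with no poly(A) signal after the stop codon were called higher in cycling cells in 37 of 37 Early B, 39 of 39 Advanced B, 31 of 32 Early T and 38 of 38 Advanced T comparisons, with median ratios of 22.3, 35.5, 30.5 and 39.6 over members with a UMI in non-cycling cells. Members with a signal were called in 14 of 19, 14 of 20, 14 of 18 and 14 of 19, with median ratios of 6.85, 9.73, 9.66 and 13.3. Over all genes 9.57%, 9.99%, 5.76% and 10.5% were called higher in these comparisons. Weak members that passed the UMI minimum were more likely to be high in cycling cells, which bears on all these counts. The 6 members called in none, Hist3h2a, Hist3h2ba, Hist2h2be, Hist4h4, Hist2h4 and Hist2h3c1, all held a signal, whereas Hist1h3b, Hist1h3c and Hist1h3g held none. Members with a signal supplied 40.8% and 41.5% of histone UMIs in non-cycling B cells but 23.9% and 24.4% in cycling B cells, and 43.5% against 24.8% in Early T cells. The ratio fell with the annotated length after the stop codon, with Spearman's rho of -0.54, -0.52, -0.66 and -0.54 over 56, 59, 45 and 54 members in Early B, Advanced B, Early T and Advanced T cells. These correlations are across genes of 1 library, which share depth and, in part, sequence, and carry no test. Of the 25 members with no 91-base window of their last 300 exonic bases in another histone gene, 21 were compared in Early B cells and 16 were called, against 35 of 35 members with shared windows. The part of length, signal and shared sequence in the ratio was not tested. Exons of 21 members overlapped another gene on the opposite strand and those of 7 on the same strand.

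**Figure D4:**
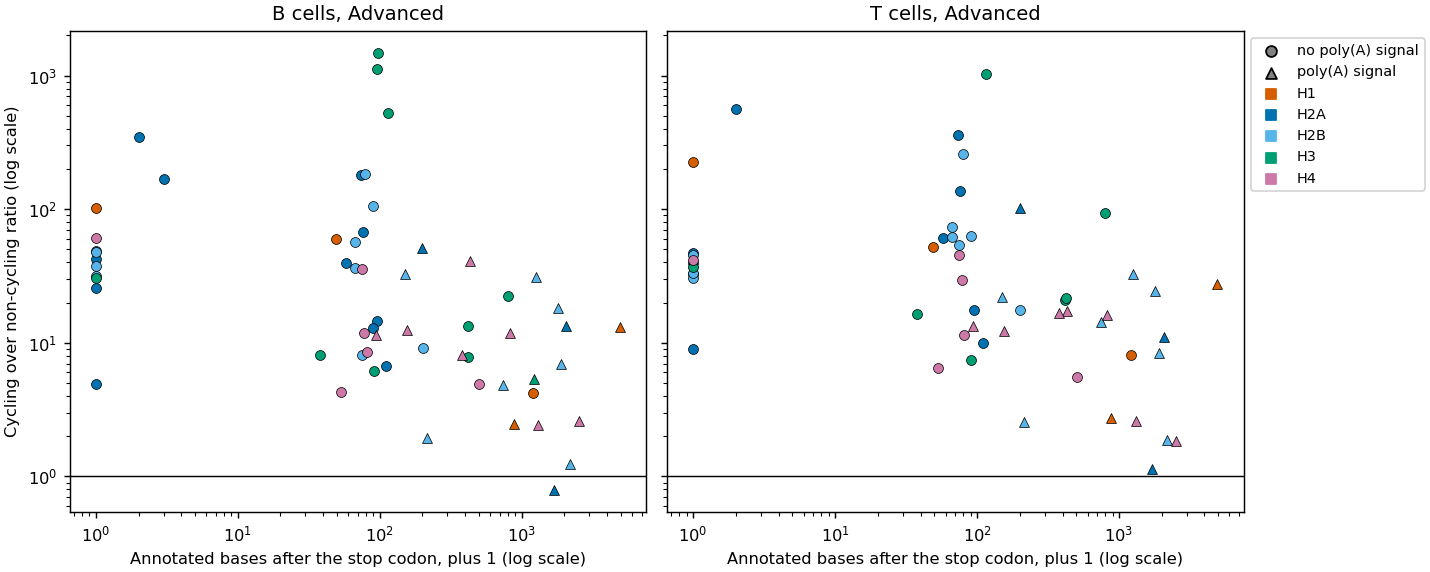
Cycling over non-cycling ratio (log scale) of each member against its annotated bases after the stop codon, plus 1 (log scale), in B and T cells of the Advanced library, with colours for classes and triangles for members with a poly(A) signal. Ratios near or below 2 occur at ends over 200 bases with a signal, and the ratios above 100 only at ends shorter than 250 bases.

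Histone UMIs were unevenly spread over the cycling cells. Among the 106 cycling Early B cells the level per cell ran from 228 to 64160 CPM with a median of 2798, and among the 155 Advanced ones from 113 to 89373 with a median of 5534. T cells ranged from 1796 to 65982 (median 12080) and from 404 to 67675 (median 14613). Cells above 10000 CPM were 44 of 106 Early (41.5%, exact 95% interval 32.0 to 51.5) and 68 of 155 Advanced cycling B cells (43.9%, 35.9 to 52.1), and 22 of 41 (53.7%, 37.4 to 69.3) and 39 of 75 (52.0%, 40.2 to 63.7) cycling T cells. They held 92.6%, 93.2%, 93.3% and 93.7% of the histone UMIs of their groups. The cycling ratios therefore describe a mixture of high and low cells. Among non-cycling cells 1 of 7534, 1 of 5896, 2 of 137 and 8 of 1119 passed 10000 CPM. The 2 non-cycling Early T cells held 11.8% of that group's histone UMIs. The classes moved together from cell to cell: Spearman's rho between H1 and the summed core histones was 0.80 and 0.92 over cycling B cells and 0.92 and 0.94 over cycling T cells, a description over cells of 1 library that share their depth.

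The level was next set against the balance of 2 gene lists within cycling cells, of DNA replication (23 genes such as Pcna and Mcm7) and of mitosis (22 genes such as Cenpf and Ube2c). It was low in the bin with the highest replication share and showed no steady relation over the others. Cycling cells were binned by the share of replication UMIs in the sum of both lists. In Early B cells the level was 8194 CPM in the bin of 0 to 20% (22 cells), 19035 in 20 to 40% (17 cells), 19858 in 40 to 60% (16 cells), 22150 in 60 to 80% (22 cells) and 5504 in 80 to 100% (28 cells). In Advanced B cells it was 17805 (33 cells), 15859 (15), 25230 (24), 22175 (33) and 6284 (47). The bin with the highest replication share held the lowest histone level in each library. T cells had the same low end, 3939 CPM in 10 Early and 5413 CPM in 22 Advanced cells of the bin of 80 to 100%, against 11875 to 30282 and 22438 to 30511 in the other bins, which hold 5 to 16 cells each. H1 made up 28.0% of histone UMIs in the top bin of Early B cells and 19.1% to 22.8% in the others, 22.7% against 18.2% to 21.8% in Advanced B, 23.3% against 16.2% to 22.0% in Early T and 19.3% against 16.6% to 19.9% in Advanced T cells. A simple cut into cells with more replication than mitosis UMIs and the reverse gave another picture, since the ratio of the former to the latter was 1.07 (1.05 to 1.09) in 54 against 50 Early B cells and 0.917 (0.904 to 0.930) in 91 against 60 Advanced B cells. By class in the Advanced library, H1 was at 1.03 (0.993 to 1.06) and H2A at 0.996 (0.976 to 1.02), within counting error of 1, while H2B at 0.723, H3 at 0.714 and H4 at 0.716 were lower. Without cells rich in precursor or plasma cell genes the summed ratio became 1.41 and 1.36, so it turned direction in the Advanced library.

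**Figure D5:**
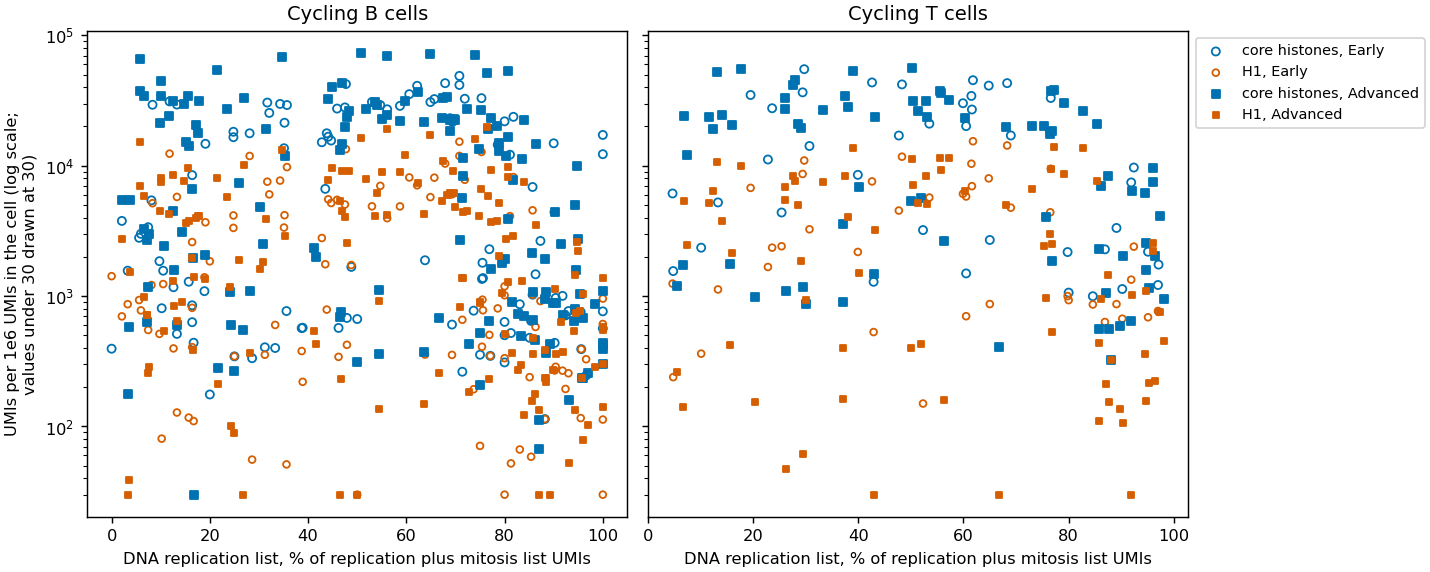
Level of core histones (blue) and H1 (orange) in each cycling B and T cell (UMIs per 1e6 UMIs, log scale, values under 30 drawn at 30) against the share of DNA replication UMIs in replication plus mitosis UMIs (percent), open for Early and filled for Advanced. Low cells occur at every share, and the cells above 80% on the x axis are mostly low.

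Other lists were read against the same background over all genes, 9.57% higher in Early B, 9.99% in Advanced B, 5.76% in Early T and 10.5% in Advanced T cells. Mitosis genes were called higher in cycling cells in 22 of 22 cases in each of the 4 comparisons, with summed ratios of 74.0, 55.4, 51.9 and 66.7, and DNA replication genes in 22 of 23 in Early and Advanced B cells and 23 of 23 in both T comparisons, with summed ratios of 9.40, 9.73, 7.83 and 10.00. Among 14 histone chaperones, which carry new histones to DNA, 10 and 11 were called in Early and Advanced B and 8 and 10 in Early and Advanced T cells. The chaperone Nasp stood at 234 against 43.6 CPM and 264 against 41.2 CPM in B cells, ratios of 5.37 (4.92 to 5.85) and 6.40 (5.96 to 6.88). Of 19 genes of histone mRNA 3′ end formation and decay in the files, 4 were called in each B comparison, and 2 and 3 of 18 in Early and Advanced T cells, shares of 21.1% in both B and of 11.1% and 16.7% in T cells. Slbp, the stem-loop binding protein gene, was one of the higher ones, at 185 against 57.5 and 180 against 58.3 CPM in B cells (ratios 3.21 and 3.09) and 261 against 59.5 and 188 against 39.7 in T cells (4.38 and 4.72). Of 10 replication-independent histone genes compared, 6 and 7 were called in B and 5 and 7 in T cells. The H3.3 genes were not among them in B cells, H3f3a with ratios of 1.24 and 1.42 and H3f3b with 1.03 (1.00 to 1.06) and 1.15 in B cells. H2afz, the gene of H2A.Z, was among those called, at 2283 against 181 and 2286 against 195 CPM in B cells, ratios of 12.6 and 11.7 (11.4 to 12.0), and 6.16 and 6.52 in T cells. The highest B cell ratios of this list were those of H1fx, named after its values were seen, at 153 (122 to 196) and 120 (86.2 to 173).

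Between the stages, differences were small beside those between cycling and non-cycling cells. In cycling B cells the summed level was 14777 CPM in the Early and 16772 CPM in the Advanced library, an Advanced over Early ratio of 1.14 (1.12 to 1.15), with classes from 1.05 (1.01 to 1.10) for H3 to 1.19 (1.13 to 1.24) for H2B. Of 57 members compared, 0 were called higher (background 1.33%) or lower (0.226%), and 52 lay above 1, with a median of 1.27 beside 1.06 over all genes. Precursor genes marked cycling B cells in the Advanced library alone, where the 32 Advanced cycling B cells with precursor genes stood at 24292 CPM (23986 to 24601) and the other 123 at 14622 (14495 to 14750), beside 14777 in the Early library. The part of these cells in the ratio was not tested. When cells rich in plasma cell genes were left out as well, the ratio was 1.13 (1.11 to 1.16), and without the 7% of cells with the most UMIs it was 2.21. The highest members were Hist1h2ah, with 30 against 6 UMIs (3.18, 1.30 to 9.35), Hist1h4f (2.80, 1.03 to 9.47) and Hist1h4n (2.16, 1.26 to 3.88). The lowest was Hist1h3e, at 381 against 430 CPM, a ratio of 0.885 (0.821 to 0.953). Hist1h1a stood at 174 against 116 CPM, with a ratio interval of 1.32 to 1.71.

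In non-cycling B cells the direction by CPM was the opposite. The summed level was 1181 CPM in the Early and 1019 CPM in the Advanced library, a ratio of 0.863 (0.854 to 0.873). H1 was lowest at 0.811 (0.796 to 0.826) and H2B highest at 0.927 (0.891 to 0.965). Counted as UMIs per cell the ratio was 0.984, with classes from 0.924 for H1 to 1.06 for H2B. Of 55 members 0 were called higher (background 1.95%) or lower (0.103%), and 37 lay below 1, with a median of 0.931 beside 1.07 over all genes. Hist1h1e went from 314 to 244 CPM (0.777, 0.759 to 0.795), and Hist1h1d from 37.7 to 24.9 CPM (0.661, 0.616 to 0.710). Hist1h1c went from 121 to 111 CPM (0.918, 0.886 to 0.951).

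Cycling T cells were near even, with 20604 CPM in the Early and 20894 CPM in the Advanced library, a ratio of 1.01 (1.000 to 1.03). H1 was at 0.933 (0.903 to 0.964) and the other classes between 1.02 and 1.09. None of 58 members was called higher, 0 (background 0.438%), or lower, 0 (0.146%), and their median was 1.11 beside 1.04 over all genes. Without the 7% of cells with the most UMIs, which left 2 Early cells, the ratio was 6.78. Hist1h4k, at 27.9 against 12.9 CPM, was the highest (2.15, 1.28 to 3.79), and Hist2h2ac, at 321 against 424 CPM, the lowest (0.758, 0.681 to 0.842).

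In non-cycling T cells the summed level was 1078 CPM in 137 Early and 780 CPM in 1119 Advanced cells, a ratio of 0.723 (0.684 to 0.765), with H1 at 0.609 (0.555 to 0.669). The median over the 42 members compared was 0.837, beside 0.870 over all genes (a shift of -0.20 on the log2 scale). Of the members 0 were called higher (background 0.140%) and 1 lower (1.06%), a share near the background. This was Hist1h1b, with 51 UMIs (38.4 CPM) in Early and 105 UMIs (8.77 CPM) in Advanced cells, a ratio of 0.228 (0.162 to 0.325). The call was lost when the 1 cell with the most histone UMIs was left out of each group, in which case 0 members were called. In the Early group 1 cell held 42 of the 537 H1 UMIs (7.82%). Hist1h1e went from 243 to 126 CPM (0.517, 0.459 to 0.585), while Hist1h1c went from 83.7 to 94.3 CPM (1.13, 0.927 to 1.38), within counting error of no difference.

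Within non-cycling B cells, in a split chosen after seeing the data, the histone level did not climb with the few UMIs of the 4 cycling genes that they held. Non-cycling Early B cells with 0, 1 and 2 UMIs of these genes stood at 1180 CPM (1171 to 1189), 1205 (1167 to 1243) and 1092 (1006 to 1184), in 7118, 370 and 46 cells. In the Advanced library they stood at 1027, 961 and 958 CPM. Non-cycling Early T cells stood at 1060 CPM (998 to 1123), 1168 (1022 to 1330) and 1112 (886 to 1378), in 118, 13 and 6 cells. Advanced T cells stood at 779, 801 and 690 CPM. By class in Early T cells, H2A stood at 252 CPM (222 to 284), 487 (394 to 595) and 201 (112 to 331). H1 was lower at 1 UMI, 266 (199 to 349), than at 0 UMIs, 430 (392 to 472). H4 was higher at 2 UMIs, 388 (260 to 558), than at 0 UMIs, 217 (189 to 247). The intervals of H2B and of H3 overlapped. With every cell thinned to 2500 UMIs and shallower cells left out (88 non-cycling and 4 cycling cells), an H2A UMI was found in 43.8% of non-cycling (42.6 to 44.9) and 73.5% of cycling Early B cells (63.9 to 81.8), against 72.8% and 98.1% unthinned. No group measured here was known to lack histone mRNA and free RNA was not removed, so the part of free RNA in the non-cycling level was not tested.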

How the data were processed

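The authors deposited raw counts, UMIs per gene and barcode, of 2 Chromium 3′ libraries from sorted live cells. The matrix headers give Cell Ranger 6.0.1, whereas GEO's processing fields list versions 3.1 and 3.1.0, with Seurat 4.0.3 and mm10. Which version counted the reads was not settled. Cells with at least 200 genes were kept, as in the study. A cell was B, T or myeloid if 5 genes of that lineage summed to at least 3 UMIs and to 3 times each other lineage. No doublet caller was run and free RNA was not removed. UMIs were summed per group and divided by the group's total. Intervals used scipy 1.17.1 and numpy 2.4.6 in python 3.11.15, and the ratio and call rule were tested on simulated Poisson counts. Those counts hold counting error only, so the test does not cover the uneven spread over cells. Positions and transcripts came from GENCODE M21 and promoters from RefSeq, both of GRCm38. Members and lists were chosen with earlier results of these data known. Members named were the 4 with the most UMIs per class, all detected H1 genes, and the 3 highest and 3 lowest of each ratio with at least 20 UMIs and 1 in each group, and up to 4 genes of each other list with the most UMIs in cycling cells. Alternatives changed the cycling cut, scaling, depth, cell filters and call rule.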

Additional observations from a re-analysis of the deposited data

Results flagged for a closer look

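Advanced over Early ratios of CPM lay on opposite sides of 1 in cycling and in non-cycling cells, each with an interval clear of 1, for all 5 classes in B cells and for H2B and H4 in T cells. In B cells the ratio was 1.12 in cycling and 0.811 in non-cycling cells for H1, 1.15 and 0.914 for H2A, 1.19 and 0.927 for H2B, 1.05 and 0.874 for H3, 1.14 and 0.884 for H4, and 1.14 and 0.863 for all members. In T cells it was 1.07 in cycling and 0.714 in non-cycling cells for H2B, and 1.06 and 0.880 for H4. T cell H1 lay below 1 in both (0.933 and 0.609), and an interval reached 1 for H2A in cycling cells (1.02, 0.996 to 1.04), for H3 in non-cycling cells (0.897, 0.703 to 1.16) and for all members in cycling cells (1.01, 1.000 to 1.03). The opposite sides depended on dividing by total UMIs. As UMIs per cell, the ratios in non-cycling B cells were 1.04 for H2A, 1.06 for H2B and 1.01 for H4, above 1 as in cycling B cells. Those of H1 (0.924) and H3 (0.996) stayed below 1. In cycling T cells they were 1.00 for H2B and 0.993 for H4. With 1 library per stage the difference between cycling and non-cycling cells was not tested.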

How the results depend on the processing

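No paired analysis was possible because each stage had 1 library, and for the same reason no replicate could be left out. The excess of histone UMIs in cycling cells kept its direction under every alternative in all 4 comparisons. The summed cycling ratio was 12.5, 16.5, 19.1 and 26.8 in Early B, Advanced B, Early T and Advanced T cells. With a cycling cut of 2 UMIs it was 10.7, 13.9 and 24.2 (Early B, Advanced B, Advanced T), and with a cut of 5 UMIs 13.6, 17.9 and 27.8. With totals without immunoglobulin, ribosomal protein and mitochondrial genes it was 11.4, 14.6, 17.2 and 21.3. With median-of-ratios scaling it was 11.5, 14.8 and 21.5 (Early B, Advanced B, Advanced T). The mean of per-cell CPM gave 11.4 in Early B and 16.5 and 22.0 in T cells. Per-cell means were given no interval, so there a gene was called when its ratio itself passed 2-fold. Thinning to 2500 UMIs gave 11.3, 16.6 and 21.8 in Early B, Early T and Advanced T cells. In Early and Advanced T cells 19 and 34 members were then called, beside 321 of all genes in the Advanced library. Leaving out cells with precursor or plasma cell genes gave 9.93, 13.2, 23.0 and 30.9. Leaving out the 7% of cells with the most UMIs gave 8.53, 22.1, 1.80 and 16.5. In Early T cells 1 member was then called, beside 53 of all genes, and the H2B ratio turned to 0.946. Leaving out the top histone cell of each group gave 12.1 in Early B cells.

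The Advanced over Early ratio in cycling B cells (1.14) was 1.10 without immunoglobulin, ribosomal and mitochondrial genes, 1.05 with median-of-ratios scaling, 1.24 by per-cell means, 1.30 thinned, 2.21 without the deepest cells and 1.16 without the top cell, and its called members became 8, 1 and 5 by per-cell means, thinned and without the deepest cells. The H3 ratio turned to 0.977 by median-of-ratios and 0.957 without precursor and plasma cell genes. In non-cycling B cells (0.863) it was 0.814 by median-of-ratios, 0.885 thinned and 0.852 without precursor and plasma cell genes, with 2 members called by per-cell means. In cycling T cells (1.01) it turned to 0.964 with a cut of 2, 0.952 by median-of-ratios, 0.979 by per-cell means and 0.956 thinned, and was 1.08 with a cut of 5 and 6.78 without the deepest cells, with 1 member called by per-cell means and 4 without the deepest cells. There H1 turned to 1.00 with a cut of 5 and to 3.87 without the deepest cells, H3 to 0.982 thinned and H4 to 0.997 by median-of-ratios. In non-cycling T cells (0.723) it was 0.821 without immunoglobulin, ribosomal and mitochondrial genes, 0.840 by median-of-ratios and 0.771 without the top cell. Members called there were 12 by per-cell means, 4 at a 1.5-fold rule and 0 thinned. They were also 0 without precursor and plasma cell genes or without the top cell. H4 turned to 1.02 by median-of-ratios. Over all genes, per-cell means called 935 in cycling B, 845 in non-cycling B, 844 in cycling T and 1333 in non-cycling T cells. Thinning called 15 genes in cycling B and 28 in non-cycling T cells. The member counts are to be read beside these.

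The ratio of cells leaning to replication over those leaning to mitosis was not stable. In Early B cells (1.07) it was 0.805 with a cut of 2, 1.17 with a cut of 5, 1.09 without immunoglobulin, ribosomal and mitochondrial genes, 1.12 by per-cell means, 0.906 thinned, 1.41 without precursor and plasma cell genes, 1.31 without the deepest cells, 1.15 without the top cell and 0.758 cut at the median share. In Advanced B cells (0.917) the values were 0.722, 1.04, 0.961, 0.838, 0.969, 1.36, 0.747, 0.897 and 0.707 in that order, and 0.944 by median-of-ratios. By class in Early B cells H1 turned to 0.834 (cut of 2), 0.993 (per-cell means), 0.988 (thinned), 0.918 (without the deepest cells) and 0.887 (median share), H2A to 0.843 (cut of 2), 0.948 (thinned) and 0.750 (median share), H2B to 1.01 (cut of 5) and 1.07 (without precursor and plasma cell genes), and H4 to 1.24 (the same) and 1.56 (without the deepest cells). In Advanced B cells without precursor and plasma cell genes H2B turned to 1.00, H3 to 1.17 and H4 to 1.10. The causes were not tested. An alternative chosen after seeing the data, non-cycling cells with 0 UMIs of the cycling genes, gave 12.5, 16.3, 19.4 and 26.8 for the summed cycling ratios, and moved the H2A ratio of Early T cells from 38.5 to 43.3 and the H2A stage ratio of non-cycling T cells from 0.729 to 0.829. Counts over all genes moved by more than 1.5 times in every comparison, from 453 to 2026 genes higher in Early B cells (1192 as reported), 524 to 2114 in Advanced B (1282), 53 to 1049 in Early T (467) and 321 to 2068 in Advanced T cells (1164). Genes called between stages ran from 15 to 935 in cycling B (151), 86 to 845 in non-cycling B (279), 3 to 844 in cycling T (52) and 28 to 1333 in non-cycling T cells (129). The highest counts came from per-cell means, called without an interval, except in cycling over non-cycling Advanced B and Advanced T cells. Those came from the 1.5-fold rule. Sequencing depth limits members with few UMIs, and 1 library per stage limits every stage ratio.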

Other observations

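Outside the B and T gates, 19 Early and 24 Advanced cycling myeloid cells stood at 13881 CPM (13569 to 14197) and 13189 CPM (12927 to 13455) of histone UMIs. Non-cycling myeloid cells stood at 781 and 796 CPM. Cells in no gate held 17493 CPM in 12 cycling Early and 8242 CPM in 34 cycling Advanced cells, and 933 and 820 CPM in the non-cycling ones. Within cycling T cells, those with precursor genes stood at 24735 CPM (24257 to 25221) in 12 Early and 22482 CPM (22198 to 22769) in 34 Advanced cells, against 18995 (18733 to 19260) and 19723 (19494 to 19953) in the others. Hist2h2aa1 had 3261 UMIs in both libraries together and Hist2h2aa2, whose last exonic bases share windows with it, had 6, so the split between them rests on the authors' counting. Hist2h2aa1 and Hist2h2aa2 were named after their values were seen.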
